A study of Mus musculus with 40 samples.

Results

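The 40 hypothalamic libraries of this panel differed widely in Prkcd, and the 18 BXD lines described here are its extremes: the 9 lines with the highest and the 9 with the lowest Prkcd level among 36 BXD lines. Levels are CPM, the reads of a gene divided by all reads counted in the same library, times 1000000. BXD lines are recombinant inbred strains, each a fixed mosaic of the C57BL/6J and DBA/2J genomes. The remaining 18 lines are called the middle lines, and the other 4 libraries came from the parents C57BL/6J and DBA/2J and from their F1 hybrids in both cross directions, B6D2F1 and D2B6F1. All strains were studied once, in the basal state, with no treatment, and the sources used here give neither age nor feeding state. A strain had a single library, in which equal amounts of RNA from 3 to 6 hypothalami were mixed for each BXD line, so the spread within a set is a spread between lines and the spread between animals of a line is unknown. The lines within a set have different genotypes and have in common only their rank by Prkcd.

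Prkcd encodes protein kinase C delta, a kinase activated by diacylglycerol. In the mouse brain it is a textbook marker of thalamic relay neurons, the glutamatergic cells that carry sensory and motor signals to the cortex, and it also marks a group of neurons in the central amygdala. The thalamus lies directly above the hypothalamus, and its relay neurons are laid down under transcription factors such as Gbx2, Tcf7l2 and Lef1, while the habenula, the reticular nucleus and the zona incerta arise next to it and have markers of their own.

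The sets were chosen by Prkcd in these same libraries, so its values are a description with no test. In the high set Prkcd stood at 108 CPM in BXD64, 68.6 in BXD63, 64.998 in BXD83, 61.4 in BXD84, 60.2 in BXD103, 57.1 in BXD65, 55.3 in BXD51, 55.01 in BXD75 and 51.6 in BXD100. In the low set it stood at 21.9 CPM in BXD44, 21.3 in BXD90, 19.8 in BXD66, 19.6 in BXD70, 18.9 in BXD50, 18.7 in BXD45, 18.2 in BXD32, 15.6 in BXD101 and 15.1 in BXD85. BXD64 stood far above the other high lines, and the low lines lay close together. The nearest lines outside the sets were BXD98 at 48.9 CPM and BXD29 at 23.2 CPM, so no wide gap parted either set from the middle lines. The set means were 64.7 ± 17.2 and 18.8 ± 2.29 CPM (SD, n = 9 lines each), a ratio of 3.45.

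**Figure D1:**
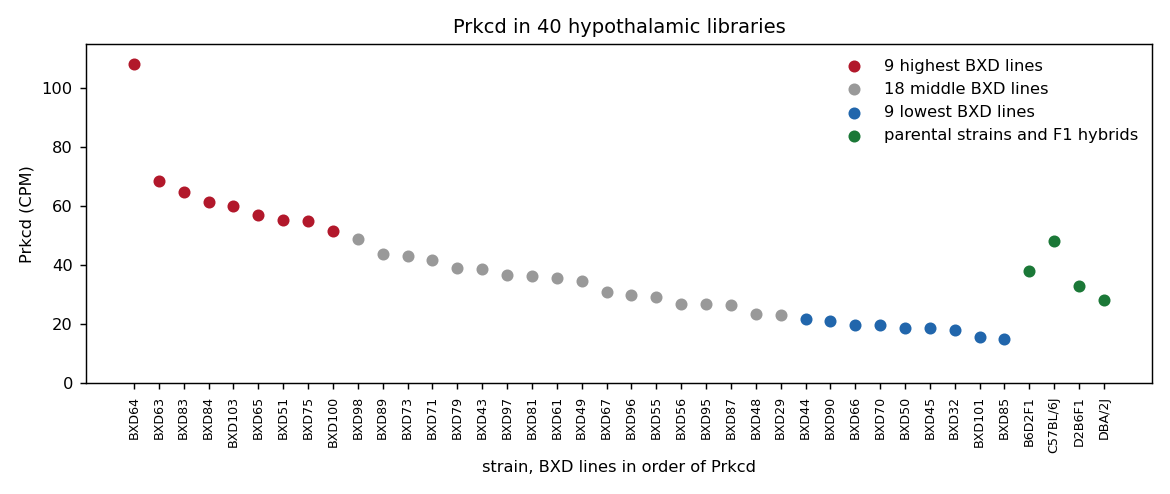
Prkcd level in CPM (vertical axis) in each of the 40 libraries, with the BXD lines in order of Prkcd and the 4 parental and F1 strains at the right. The values fall gradually from BXD63 at 68.6 to BXD85 at 15.1 CPM, with BXD64 alone at 108 CPM.

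Total counts ran from 18.9 to 40.4 M in the high set and from 18.1 to 30.1 M in the low set. Hypothalamic genes were present in both sets. Summed levels of 18 hypothalamic transcription factors were 558 to 653 CPM in the high lines and 541 to 691 CPM in the low lines. Arnt2 alone averaged 368 CPM in the high and 388 CPM in the low lines, so the sum mostly follows that gene. It says little of the rarer factors, which are described below. A pair of libraries in the low set stood apart. BXD32 held 1010 CPM of 14 choroid plexus genes where the other 17 lines held 108 to 198 CPM, and BXD90 held 1860 CPM of striatal projection neuron genes where BXD45 was next with 1012 CPM. Counts below are therefore also given without these libraries.

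As sequence context, RefSeq promoters (build GRCm38.p6, 250 bases before to 50 after a gene's start) were searched on both strands for CTTTGA, the core to which TCF and LEF proteins bind, and for TAATTA, a core bound by many homeodomain proteins. Those of Prkcd, of Shox2, which had the largest difference of the thalamic genes, and of Synpo2 are shown because each holds a match, in capitals. Prkcd has a further promoter entry, at chr14:30610261-30610560, which holds neither motif and is not shown. All 3 genes lie on the minus strand, and the sequences run 5′ to 3′ along the gene: Prkcd at chr14:30626159-30626458, Shox2 at chr3:66981722-66982021 and Synpo2 at chr3:123236100-123236399. In Prkcd and Shox2 the match is TCAAAG, the reverse complement of CTTTGA, and in Synpo2 it is TAATTA.
Prkcd: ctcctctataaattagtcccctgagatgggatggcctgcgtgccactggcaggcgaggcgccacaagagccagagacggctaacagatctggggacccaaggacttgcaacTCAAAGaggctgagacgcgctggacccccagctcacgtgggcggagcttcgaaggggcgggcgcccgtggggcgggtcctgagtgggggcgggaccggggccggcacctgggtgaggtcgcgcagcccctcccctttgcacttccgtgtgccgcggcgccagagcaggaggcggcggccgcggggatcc
Shox2: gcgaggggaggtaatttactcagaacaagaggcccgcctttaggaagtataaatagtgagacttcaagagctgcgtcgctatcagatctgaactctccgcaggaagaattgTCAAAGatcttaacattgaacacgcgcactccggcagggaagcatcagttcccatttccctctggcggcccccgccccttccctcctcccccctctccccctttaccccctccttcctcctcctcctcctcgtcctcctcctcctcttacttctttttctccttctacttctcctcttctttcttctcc
Synpo2: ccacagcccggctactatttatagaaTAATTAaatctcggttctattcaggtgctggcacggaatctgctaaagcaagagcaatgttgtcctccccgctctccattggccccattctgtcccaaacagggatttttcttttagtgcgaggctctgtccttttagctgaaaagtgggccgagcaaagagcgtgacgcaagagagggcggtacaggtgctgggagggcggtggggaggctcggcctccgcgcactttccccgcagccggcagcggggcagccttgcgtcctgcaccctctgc
CTTTGA on either strand was in 3 of 22 promoters (13.6%) of the 16 thalamic genes that were higher in the high lines, and in 16% of all 32851 promoters. TAATTA was in 1 of 22 (4.55%), against 5.29% of all. Neither share stood above that of all promoters, and binding was not measured.

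To ask which other transcripts follow Prkcd, the high lines were compared with the low lines over 15459 genes. Genes of thalamic relay neurons were among those higher: 16 of 26 genes of a list of thalamic projection neuron genes passed an adjusted p of 0.05 (edgeR's quasi-likelihood test) and were higher in the high lines, and 0 were lower. They included the relay nucleus transcription factors Shox2, Gbx2, Tcf7l2, Lhx9 and Lef1, and Ramp3, Tnnt1, Synpo2 and Ntng1. Among all genes tested, 55 were higher (0.356%) and 3 were lower (0.0194%), with 583 and 503 at an unadjusted p under 0.05. The median log2 fold change was 0.55 over the thalamic list and -0.01 over all genes. Of the 26 thalamic genes 25 had a positive value, against 47% of all genes. The list was chosen with earlier results of these data known, so its counts are a description and not an independent test. In bulk RNA, fewer cells of a type and less RNA per cell cannot be told apart.

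Among the transcription factors, Shox2 had the largest difference. Shox2, a homeobox factor of thalamic relay nuclei and of the heart's pacemaker, had 2.22 CPM in the lowest, 3.26 in the median and 5.97 in the highest high line, and 0.253, 0.444 and 1.94 CPM in the low lines. Every high line was above every low line, and the mean was 5.59-fold higher (log2 fold change 2.47 ± 0.30 SE, adjusted p = 0.000123, edgeR). Shox2 is a rare transcript, with 6 to 134 reads per library. Gbx2, a homeobox factor needed for thalamic neurons to form, stood at 4.50, 5.71 and 9.21 CPM in the high lines and at 1.33, 1.75 and 3.21 CPM in the low lines, again with no overlap (1.51 ± 0.18, adjusted p = 5.71e-05, edgeR). Tcf7l2, a nuclear partner of beta-catenin that specifies thalamic and habenular neurons, ran from 44.2 to 69.5 CPM with a median of 60.9 in the high lines. In the low lines it ran from 16.4 to 31.3 CPM with a median of 28.4, and no line overlapped (1.11 ± 0.12, adjusted p = 2.03e-05, edgeR).

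Lhx9, a LIM homeobox factor of the early thalamus, averaged 12.1 ± 2.36 CPM in the high lines and 6.32 ± 1.47 CPM in the low lines (log2 fold change 0.94). Its sets touched: 8 of 9 low lines were below the lowest high line. Zic1 and Zic4, zinc finger factors of the medial thalamus and other midline tissue, were higher by 0.58 and 0.54 log2 units, Zic1 with no overlap. Zic2, described after its values were seen, ran from 30.5 to 40.0 CPM against 19.3 to 24.7 CPM (0.61 ± 0.06, adjusted p = 6.21e-06, edgeR). Zic5 had a value of 0.32 and did not pass. Lef1, a DNA-binding partner of beta-catenin like Tcf7l2, and Rora, a nuclear receptor of sensory relay neurons, were higher by 0.37 and 0.84. Both calls were fragile, since Lef1 passed in 9 and Rora in 5 of the 18 fits that each left out 1 line.

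**Figure D2:**
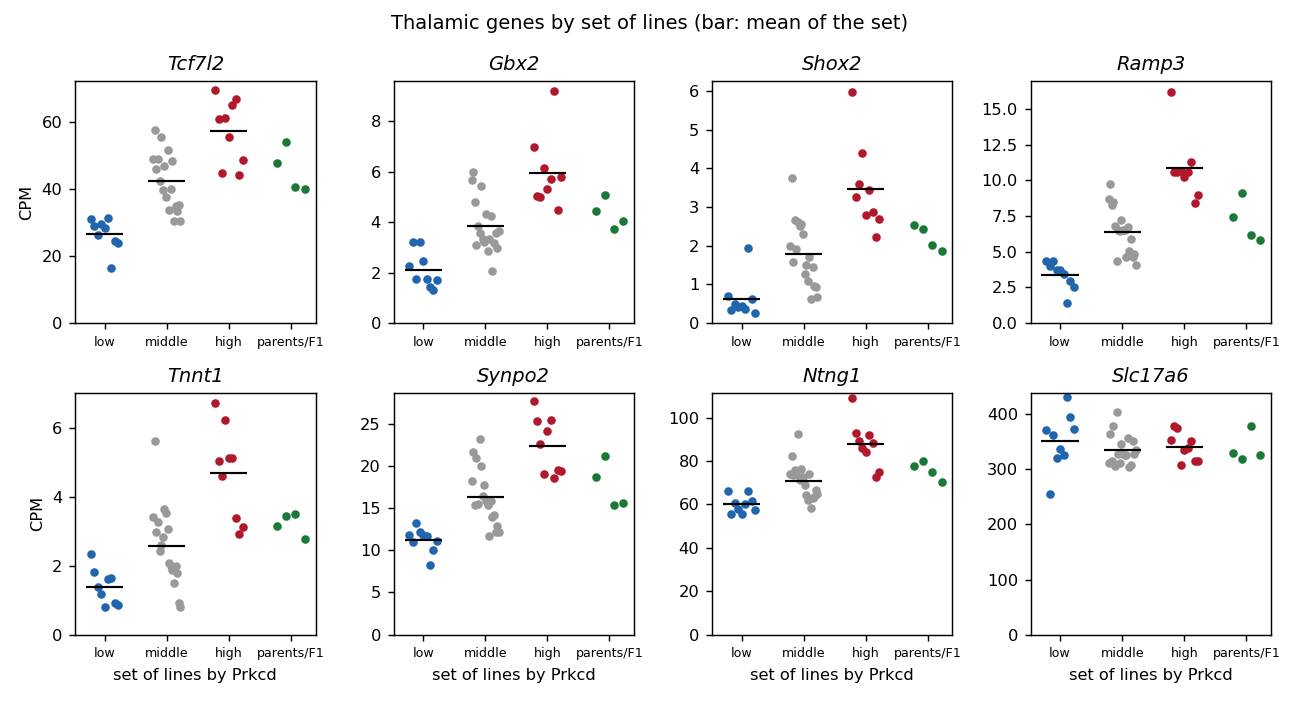
Levels in CPM (vertical axis, from 0) of 8 genes of the thalamic list in the 9 low, 18 middle and 9 high lines and in the 4 parental and F1 strains; each point is 1 library and the bar is the mean of the set. High and low lines do not overlap for the first 7 genes, from Tcf7l2 to Ntng1, while Slc17a6 overlaps throughout.

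Among genes of signalling and of the cell surface, Ramp3, an accessory protein of calcitonin-family receptors, was higher by 1.69 ± 0.16 log2 units (adjusted p = 6.21e-06, edgeR). Its level ran from 8.39 to 16.2 CPM with a median of 10.6 in the high lines, and from 1.42 to 4.38 CPM with a median of 3.71 in the low lines. Ntng1, netrin-G1, an axonal adhesion molecule of thalamocortical fibres, ran from 72.7 to 109 CPM in the high lines and from 55.4 to 66.04 CPM in the low lines. The 2 sets of Ntng1 values therefore lay close without touching (0.55 ± 0.06). Vav3, an exchange factor of small GTPases, Rgs16, which speeds G protein shut-off, and Slitrk6, a neuronal membrane protein, differed by 0.64, 0.46 and 0.33, each with overlapping sets. Slitrk6 passed in 6 and Rgs16 in 11 of the 18 fits without 1 line.

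Further genes of the list separated the sets. Tnnt1, slow skeletal troponin T, which is also transcribed in thalamic neurons, stood at 2.93 CPM in the lowest, 5.05 in the median and 6.73 in the highest high line. In the low lines it stood at 0.800, 1.37 and 2.33 CPM, so every low line lay below every high line (1.76 ± 0.21, adjusted p = 6.94e-05, edgeR). Synpo2, an actin-binding protein, ran from 18.6 to 27.7 CPM against 8.20 to 13.2 CPM (1.00 ± 0.09). Plekhg1, an exchange factor of small GTPases, averaged 55.9 ± 10.9 against 32.3 ± 3.802 CPM (0.79 ± 0.10). All 3 were without overlap. In all, 9 of the 26 thalamic genes separated the sets completely, where 0.136% of all genes tested did so.

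The other thalamic genes did not pass. Slc17a6, the vesicular glutamate transporter VGLUT2 that relay neurons share with many hypothalamic neurons, had a median of 339 CPM in the high and 362 CPM in the low lines, with nearly full overlap (-0.04). Calb2, calretinin, averaged 254 ± 28.01 against 219 ± 35.4 CPM, and Cacna1g, the T-type calcium channel of burst firing, 215 ± 22.04 against 195 ± 22.7 CPM. Foxp2, Lhx2, Adarb1, Amotl1 and Plcb4 had log2 values from 0.06 to 0.27. The GABA-A receptor subunits Gabra4 and Gabrd, which form the extrasynaptic receptor of relay neurons, had 0.51 (adjusted p = 0.0546, edgeR) and 0.77 (adjusted p = 0.848). BXD90, the low line with high striatal genes, had 27.5 CPM of Gabrd where the median low line had 2.83 CPM. Without BXD90 both passed, Gabrd at 1.61 (adjusted p = 0.0358) and Gabra4 at 0.59 (adjusted p = 0.00564). Both also passed in DESeq2 with all lines, and of 15 settings other than leaving out 1 line Gabra4 passed in 8 and Gabrd in 3.

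Outside the list, Grid2ip, a scaffold that binds the glutamate receptor GluD2 and is known from cerebellar synapses, had the smallest p of all genes. It ran from 8.86 to 18.1 CPM with a median of 12.9 in the high lines and from 3.08 to 5.13 CPM with a median of 4.32 in the low lines (1.61 ± 0.12, adjusted p = 7.13e-08, edgeR). Ptpn3 and Ptpn4, related tyrosine phosphatases with FERM and PDZ domains, were higher by 1.16 and 1.08. Ptpn3 separated the sets, at 45.8 to 87.9 against 19.9 to 31.1 CPM, and Ptpn4 did so in 8 of 9 lines on each side. The adrenergic receptor Adra2b (1.74), the adhesion receptor Gpr133 (1.22), the Wnt ligand Wnt9b (1.29) and Edaradd, an adaptor of the ectodysplasin receptor (1.52), were each higher from low levels, with high-set means of 1.62 to 2.66 CPM. A second Wnt ligand, Wnt3, described after its values were seen, was higher by 0.63. Of the 55 higher genes, 35 were in none of the lists, and 15 had a log2 fold change of at least 1. Abhd12b, also described after its values were seen, had the largest value, from 0.354 to 2.45 CPM in the high lines and from 0 to 0.458 CPM in the low lines. At 0 to 87 reads per library its fitted 3.79 is imprecise.

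The 3 lower genes differed little. Ust, an enzyme that sulfates chondroitin and dermatan sulfate, was at 25.2 to 27.9 CPM in the high and 28.3 to 33.7 CPM in the low lines, the 1 gene of all tested with every high line below every low line (0.00647%). Nptx1, a neuronal pentraxin of the cortical list, and Htr2a, a serotonin receptor, had log2 values of -0.24 and -0.31. The calls of Ust and Htr2a held in 2 and 1 of the 18 fits without 1 line, and that of Nptx1 in 12.

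Lists of neighbouring regions had at most 1 gene each past the threshold. Of 8 habenular genes tested, 1 was higher, Gpr151, a receptor of habenular axons (0.70, adjusted p = 0.0212, edgeR), and 4 were negative, with a median of 0.02. Summed habenular levels overlapped, at 82.0 to 103.1 CPM in the high and 83.4 to 103.6 CPM in the low lines. Most of this sum came from Lrrc55, Tac2 and Nr4a2, which averaged 42.04, 23.85 and 16.94 CPM in the low lines. In the high lines these averaged 41.77, 25.01 and 15.5 CPM. Gpr151 averaged 2.094 CPM in the high and 1.292 CPM in the low lines. The sum therefore says little of the rarer habenular genes. Of 12 reticular nucleus and zona incerta genes, 1 was higher, the eye and forebrain factor Pax6 (0.39). Its call held in 6 of the 18 fits without 1 line. The central amygdala also transcribes Prkcd, and of 8 genes of the central amygdala and bed nucleus 0 passed in either direction in edgeR or DESeq2, 1 was lower at an unadjusted p under 0.05, and 7 were negative. Among 15 channels of thalamic burst and tonic firing, Kcnc2, a fast potassium channel, was higher (0.36 ± 0.06), at 132 to 168 against 96.6 to 130 CPM with no overlap. The list had 10 positive and 5 negative values with a median of 0.06. Its T-type calcium channels Cacna1h (-0.20) and Cacna1i (-0.14) were lower at an unadjusted p under 0.05 and did not pass. Hcn2 of the same list went the other way (0.14), also at an unadjusted p under 0.05 and without passing.

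**Figure D3:**
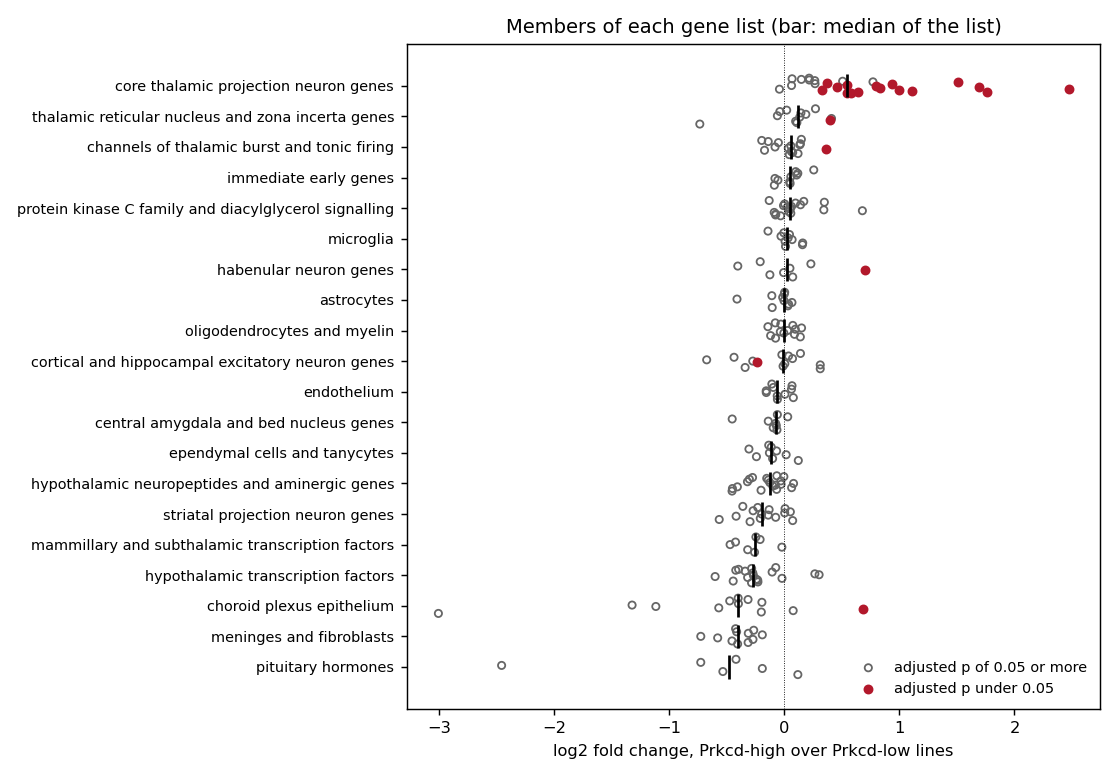
Log2 fold change of the high over the low lines (horizontal axis) for the tested members of 20 gene lists (rows); filled points passed an adjusted p of 0.05 (edgeR) and the bar is the median of the list. The thalamic projection list has 16 filled points, all to the right of 0, and no other list has more than 1.

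Hypothalamic genes lay slightly on the other side. Of 18 hypothalamic transcription factors, 0 passed the adjusted threshold in edgeR, 1 passed as lower in DESeq2 (Nr5a1), 7 were lower at an unadjusted p under 0.05, and 16 were negative, against 53% of all genes, with a median of -0.27. The lowest values were those of Nr5a1, the factor that defines the ventromedial nucleus (7.91 ± 2.12 against 12.02 ± 3.34 CPM, adjusted p = 0.186, edgeR), and of Six6, a homeobox factor of the eye and hypothalamus (6.56 ± 0.892 against 8.94 ± 2.49 CPM, adjusted p = 0.285). All 7 mammillary and subthalamic factors tested were negative, with a median of -0.26, 2 were lower at an unadjusted p under 0.05, and 0 passed in edgeR or DESeq2. Of 19 hypothalamic peptide and aminergic genes 17 were negative, with a median of -0.13, and Vip, a peptide of the suprachiasmatic nucleus, had the smallest p (-0.45, adjusted p = 0.171 in edgeR, past the threshold in DESeq2).

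Markers of other tissue moved with the sets in part. All 11 meningeal genes were negative with a median of -0.41. Of these, 3 were lower at an unadjusted p under 0.05 and 0 passed in edgeR or DESeq2. Their summed level was 94.5 to 227 CPM in the high and 127 to 262 CPM in the low lines. Choroid plexus genes had a median of -0.40, although Otx2, a factor of both choroid plexus and the developing thalamus, was higher (0.68, passing in 9 of the 18 fits without 1 line). Ttr, the defining choroid plexus transcript, was at 808 CPM in BXD32, 78.6 in BXD65 and 51.04 in BXD101, with set medians of 1.96 CPM in the high and 1.75 CPM in the low lines. The 15 striatal genes tested had a median of -0.20, and 0.15 without BXD32 and BXD90, and the 13 cortical and hippocampal genes one of -0.01. Pituitary hormone genes had a median of -0.48 over 6 genes, from low levels. Ependymal genes had a median of -0.11, and immediate early genes one of 0.05. Oligodendrocyte, astrocyte, microglial and endothelial medians lay between -0.06 and 0.02. Of 6 RNAs that mark library or RNA differences, 5 were positive with a median of 0.32, and 0 passed in edgeR or DESeq2 or had an unadjusted p under 0.05. Malat1, a nuclear RNA, had 0.54, Neat1, another, 0.56 and Lars2 0.45, and their list summed to 13150 to 21560 CPM in the high and 11510 to 23210 CPM in the low lines. With log2 Lars2 as a covariate 49 genes were higher, 14 of them thalamic. The part of these other tissues in the thalamic differences was not tested beyond the refits given next.

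Without BXD90, 83 genes were higher and 11 lower. Without BXD32 and BXD90 together, an alternative chosen after seeing the data, 110 genes were higher, 26 were lower, and 18 thalamic genes were higher. These held 52 of the 55 higher genes, 15 of the 16 thalamic genes and 1 of the 3 lower genes. The median choroid plexus value was then 0.05 and that of the hypothalamic factors -0.34, of which Nr5a1 and Six6 passed as lower.

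**Figure D4:**
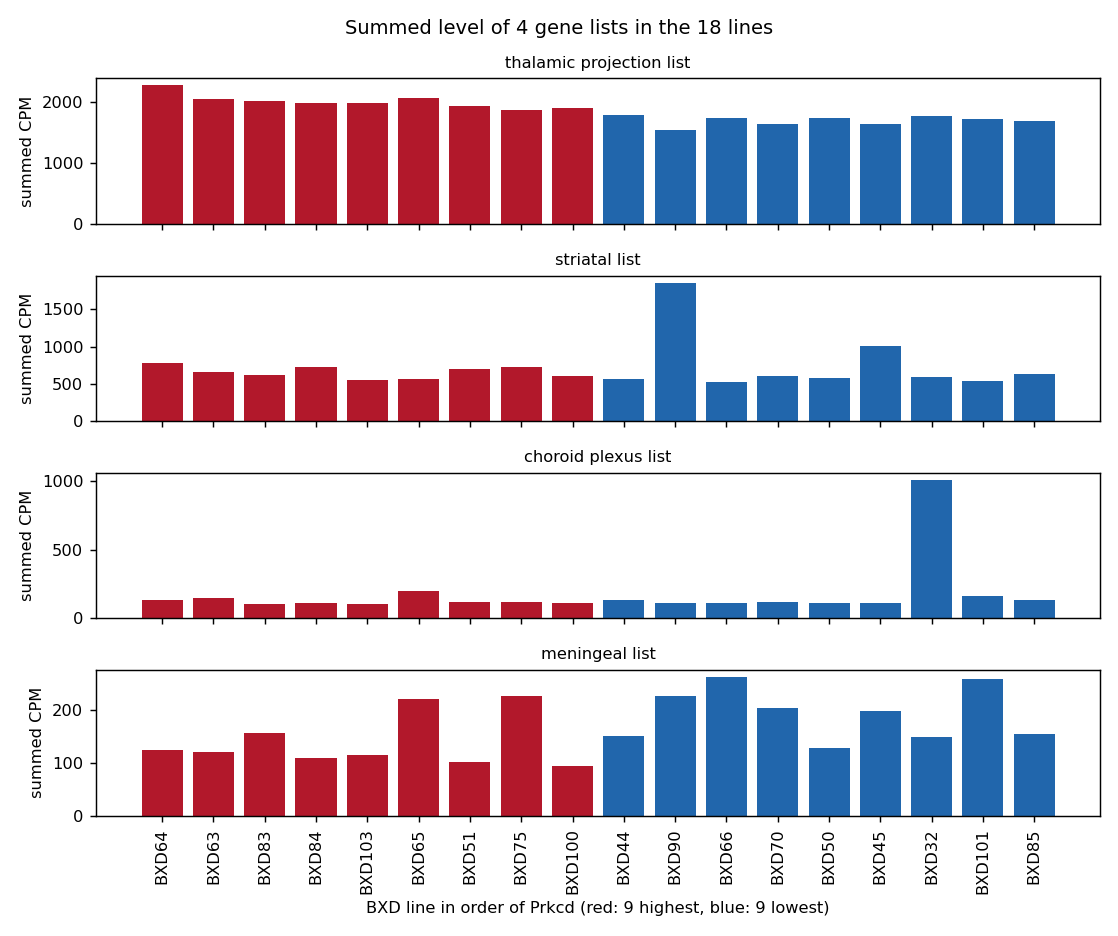
Summed CPM (vertical axes, from 0) of the thalamic, striatal, choroid plexus and meningeal lists in each of the 18 lines, with the 9 high lines in red and the 9 low lines in blue. The thalamic sum is 1864 to 2271 CPM in the high and 1536 to 1790 CPM in the low lines, while BXD90 and BXD32 stand out in the striatal and choroid plexus lists.

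No relative of Prkcd passed in edgeR. Of 19 protein kinase C and diacylglycerol signalling genes tested, 0 were past the adjusted threshold there, 2 passed as higher in DESeq2 (Prkch among them), 4 were higher at an unadjusted p under 0.05, and the median was 0.05. The largest value was that of Prkch, the eta isoform and a relative of delta, which averaged 14.8 ± 2.27 CPM in the high and 9.31 ± 3.67 CPM in the low lines (0.68, adjusted p = 0.105). Prkca, Prkcb and Prkce, further isoforms abundant in brain, had values from 0.03 to 0.05.

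No gene beside Prkcd on chromosome 14 passed. Of the 5 nearest genes on each side, 8 were tested, all within -0.10 and 0.14 log2 units, and 0 were past the adjusted threshold in edgeR or DESeq2, or had an unadjusted p under 0.05. Of the 55 genes higher in the high lines, 53 could be placed and lay on 16 chromosomes. Chromosome 14, which holds Prkcd, had 4 of them, or 0.777% of the genes tested there against 0.356% of all genes. The highest shares were 0.845% on chromosome 3 and 0.814% on chromosome 1.

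The 18 middle lines did not enter the contrast and cover a smaller range of Prkcd, 1.08 log2 units. Over these lines the slope of each gene on log2 Prkcd was tested for 14912 genes. The slope was positive and passed in 5 genes (0.0335%) and negative in 0 (also 0 in DESeq2), with 391 genes at an unadjusted p under 0.05, 226 of them positive. The 5 genes were Tnnt1 (slope 1.84 ± 0.26, adjusted p = 0.00223, edgeR), Shox2 (1.82 ± 0.32, adjusted p = 0.0405), Ramp3 (0.93 ± 0.17, adjusted p = 0.0477), Ptpn3 (0.76 ± 0.10, adjusted p = 0.000945) and 6330403A02Rik (0.59 ± 0.08, adjusted p = 0.000945), a gene named only by a clone identifier. All 5 were also higher in the contrast. A slope of 1 means a change in proportion to Prkcd, and Tnnt1 and Shox2 had slopes above that.

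Of the 55 genes higher in the contrast, 52 were tested in the middle lines and 51 had a positive slope, where 49.4% of all genes did. Of these, 30 were positive with an unadjusted p under 0.05. Rora was the exception, at -0.02. Of the 26 thalamic genes 25 were positive with a median of 0.31, and Tcf7l2 (0.71 ± 0.14, adjusted p = 0.0782) and Synpo2 (0.73 ± 0.14, adjusted p = 0.082) missed the threshold. Positive slopes were not particular to the thalamic list. Of the 8 habenular genes tested 7 were positive, with a median of 0.27 near the thalamic one, and 0 passed. All 10 immediate early genes (median 0.13) and 12 of 13 oligodendrocyte and myelin genes (median 0.06) were positive too, again with 0 passing. Of the 18 hypothalamic transcription factors 3 had a positive slope, with a median of -0.09, and of 10 meningeal genes 1 did (median -0.18). Shox2 passed in 10 and Ramp3 in 4 of 21 alternative fits of the middle lines, while Tnnt1, Ptpn3 and 6330403A02Rik passed in all 21.

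**Figure D5:**
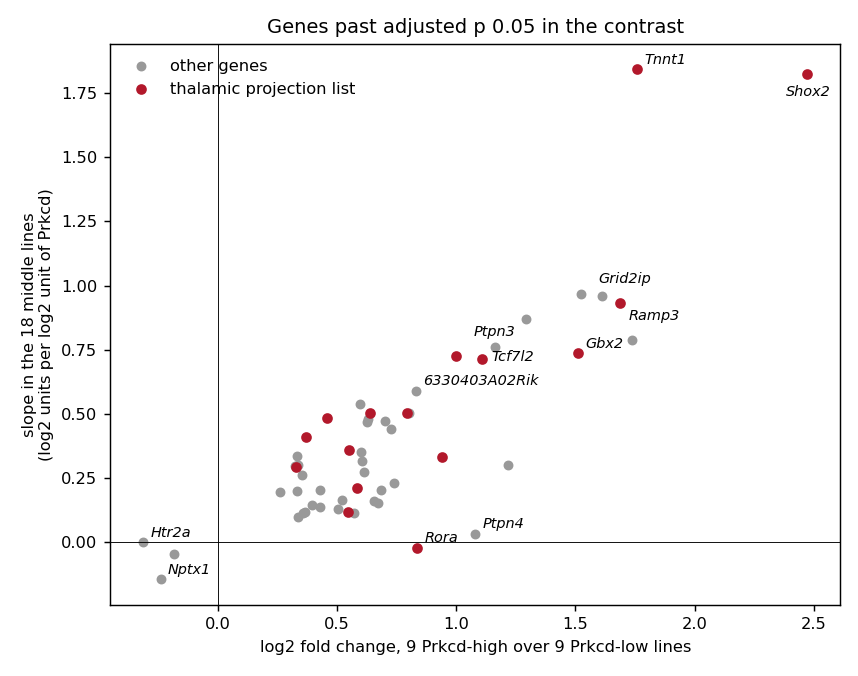
Genes past an adjusted p of 0.05 in the contrast that were also tested in the middle lines: log2 fold change of high over low lines (horizontal axis) and slope on log2 Prkcd in the 18 middle lines (vertical axis), with thalamic list genes in red. The 2 axes share no BXD line; 51 of the 52 genes to the right of 0 lie above 0 on the vertical axis.

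The parental strains and hybrids fell between the sets. Prkcd was 48.2 CPM in C57BL/6J, 37.9 in B6D2F1, 32.8 in D2B6F1 and 28.3 in DBA/2J, each a single library. Tcf7l2 was 54.0 CPM in C57BL/6J and 39.9 in DBA/2J, Ramp3 9.13 and 5.83, and Shox2 2.43 and 1.86. All 4 strains lay between the 2 set means for 209 of all 15459 genes tested. They did so for 41 of the 55 higher genes, and for 13 of the 16 thalamic genes among them. The 55 genes were called because the sets differ, which leaves room between the means, so these counts are a description and no test. C57BL/6J stood above DBA/2J in 15 of these 16 genes (93.8%), in 40 of the 55 (72.7%) and in 47.6% of all genes tested. With 1 library each, this order has no replicate check.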

How the data were processed

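Hypothalamic mRNA of 40 mouse strains was prepared as stranded libraries (TruSeq) and sequenced as single-end reads of 100 bases, per the labels' protocols, which plan 40 M reads per library and describe the extraction together with that of brainstem. TopHat2 2.0.8, HTSeq 0.5.4p3 and DESeq are named, with the assembly mm9, per the submitters' processing notes. The authors deposited whole-number read counts for 23955 genes, used for every value here, and a normalized signal, counts divided by a size factor per library per the values. Of the deposited normalized values 100% were whole multiples of a read within 0.01, and these recovered reads served as an alternative.

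Totals ran from 12.2 to 40.4 M counts (median 23.6 M). CPM is the count over the library total. Models were fitted in R 4.3.3 with edgeR 4.0.16 (TMM, filterByExpr, robust quasi-likelihood, Benjamini-Hochberg adjusted p under 0.05 over all genes tested except Prkcd): the 9 high against the 9 low lines, and a slope on centred log2 Prkcd in the 18 middle lines. Since 1 library stands for a line, p-values measure the spread between lines. DESeq2 1.42.0, other scalings, filters, set sizes, covariates and leaving out each line were alternatives. On simulated data the contrast recovered 70% of genes changed by 0.5 and 94% of genes changed by 1 log2 unit with 6 false calls over 15386 genes, and the middle-line slope 46% and 90% with 7 false calls over 14830 genes.

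The members and lists were chosen with earlier results of these data known. Named were all thalamic, habenular and protein kinase C list genes, the 12 largest changes each way among genes past the threshold with a mean of at least 1 CPM, up to 4 genes of smallest p in other lists, the 5 nearest genes on each side of Prkcd, and the 10 smallest p of the middle-line slope. Promoters came from RefSeq on GRCm38.p6, where all 16 thalamic genes called higher and 45 of the 55 genes called higher had an entry. Gene order and chromosomes came from a RefSeq gene annotation, since an mm9 annotation is not used here. A few genes of the lists are not reported here by name.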

Additional observations from a re-analysis of the deposited data

Results flagged for a closer look

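For each of the 58 genes past the threshold, the 9 lines of each set (unless a line was at 0 CPM) were checked for a line lying apart, by the gap to its nearest neighbour over the range of the set on the log2 scale. In 8 of these groups 1 line did, where chance gives about 1 in 20 groups. Nearly every one of the 58 genes gave both a high and a low group, so 8 is only a little above that share. Whether it exceeds chance was not tested, and the lines named next are a description. In the high set the line was BXD64 both times, with Ptpn3 at 87.9 CPM and Ramp3 at 16.2 CPM, each the highest value. In the low set BXD32 lay apart with 1.42 CPM of Ramp3, 16.4 CPM of Tcf7l2 and 124 CPM of Nsmf, each the lowest value, and with 1.94 CPM of Shox2, the highest. BXD90 had the highest low-set level of Mgat5b, 64 CPM, and BXD101 the lowest of Epha1, 0.765 CPM. Mgat5b, Nsmf and Epha1 were described after their values were seen.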

How the results depend on the processing

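The main counts were 55 genes higher, 3 lower and 16 thalamic genes higher. DESeq2 gave 93 higher and 17 lower, 6 against 6 lines 35 higher with 10 thalamic, 12 against 12 lines 88 and 12, and a slope over all 36 lines 187 and 32. The recovered reads gave 61 and 3. The count of lower genes was 0 with log2 Lars2 and 8 with log2 Ppp1r1b as covariate (the latter added after seeing the data). Without BXD32 and BXD90, also added later, the counts were 110 and 26. Leaving out 1 line at a time gave 37 (without BXD84) to 83 (without BXD90) higher, 12 to 17 thalamic, and 0 to 11 lower: 0 without BXD65, BXD75, BXD44, BXD66 or BXD70, 1 without BXD64, BXD63, BXD84, BXD50, BXD45 or BXD85, 6 without BXD32 and 11 without BXD90. The cause was not tested. The middle-line slope gave 18 genes by DESeq2 and 3 to 7 when each line was left out. Of the 58 called genes, 25 kept their call in every alternative of the contrast that tested them, 9 of them thalamic, and 0 changed sign; 2 of the 25, Abhd12b and Atp2a1, were tested in 13 of the 15 alternatives other than leaving out 1 line. Slc17a6, which did not pass, turned to 0.0282 with log2 Lars2 as covariate, and ran from -0.08834 (without BXD90) to 0.007345 (without BXD32) when 1 line was left out. No paired analysis was possible because a strain has only 1 library, matched to no other. Rare transcripts such as Shox2 and Abhd12b are limited by their reads.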

Other observations

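Among the genes of smallest p in the middle lines were some on chromosome 3 whose values in the contrast were near 0, unlike Shox2 and Synpo2 on the same chromosome. Zfand1, a zinc finger protein of the stress granule response and described after its values were seen, had a slope of 3.38 ± 0.65 (adjusted p = 0.0905, edgeR). Of the genes named by rule, Fabp5, a fatty acid binding protein, had a slope of 1.46 ± 0.27 (adjusted p = 0.082), and Impa1, an inositol monophosphatase, one of 0.57 ± 0.11 (adjusted p = 0.0905). None of the 3 passed, and in the contrast their log2 values were 0.16, 0.06 and 0.06. Zfand1 ran from 1.79 to 14.1 CPM in the high lines and from 1.88 to 15.6 CPM in the low lines, nearly the same wide range in both sets.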
